A study of Mus musculus with 18 samples.

Results

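Renal glucose production was followed through 9 genes, Pck1, Pck2, G6pc, Fbp1, Pcx, Slc5a2, Slc5a1, Slc2a2 and Ppargc1a, of 55385 genes counted in whole mouse kidney. They were chosen by name for their roles in this path, with earlier results of these data known, and all 9 passed the filter on low counts that left 17575 genes for testing. PolyA RNA was sequenced from kidneys of 18 mice in 3 groups of 6, each of 3 males and 3 females aged 17.1 to 18.0 weeks, with no treatment. The wild-type group was of the C57BL/6J strain. In Dp16 mice there is an extra copy of the mouse segment that corresponds to much of the human chromosome tripled in Down syndrome, and the Dp16 2xIFNRs mice carry that duplication with the dosage of its interferon receptor genes returned to normal. The labels name a strain for the wild-type animals alone, and do not say whether the animals were littermates or fasted.

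Gluconeogenesis makes glucose from lactate, glycerol and amino acids. In the kidney it runs in the cortical part of the proximal tubule, which also takes filtered glucose back from the urine. Pyruvate carboxylase (Pcx) makes oxaloacetate in mitochondria, and phosphoenolpyruvate carboxykinase turns it into phosphoenolpyruvate in the cytosol (Pck1) or in mitochondria (Pck2). Fructose bisphosphatase (Fbp1) and the catalytic subunit of glucose-6-phosphatase (G6pc) carry out the late irreversible steps. SGLT2 (Slc5a2) and SGLT1 (Slc5a1) carry filtered glucose into the tubule cell with sodium, GLUT2 (Slc2a2) lets glucose out on the blood side, and PGC-1alpha (Ppargc1a) is a transcriptional coactivator of mitochondrial and gluconeogenic genes. Transcription of Pck1 is known to respond to cAMP, glucocorticoid, insulin and acid-base state.

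In GENCODE M21, on build GRCm38, all 9 are protein-coding. Pck1 (ENSMUSG00000027513.11) lies on the + strand at chr2:173153048-173159273, Pck2 (ENSMUSG00000040618.7) on the + strand at chr14:55540266-55551242, and Pcx (ENSMUSG00000024892.17) on the + strand at chr19:4510472-4621752. Fbp1 (ENSMUSG00000069805.10) lies on the - strand at chr13:62864753-62888282 and G6pc (ENSMUSG00000078650.2) on the + strand at chr11:101367561-101377903. Slc5a2 (ENSMUSG00000030781.13) lies on the + strand at chr7:128265657-128272430, Slc5a1 (ENSMUSG00000011034.6) on the + strand at chr5:33104219-33162870, and Slc2a2 (ENSMUSG00000027690.13) on the + strand at chr3:28697903-28731359. Ppargc1a (ENSMUSG00000029167.13) lies on the - strand at chr5:51454250-51567726. None lies on the chromosome that carries the duplicated segment.

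Upstream sequence is shown for Pck1, which differed most between the genotypes, for Ppargc1a, whose window shares a motif with it, and for G6pc, which catalyses the last step and shares the other. The sequences are from RefSeq on GRCm38.p6, whose table held a window for 8 of the 9 genes (9 windows, none for Slc5a2). Each run is printed up to the GENCODE start. Capitals mark the short cAMP response element TGACG, held by Pck1 and Ppargc1a on the strand opposite to the printed one, and the HNF1 half-site of Pck1 and G6pc. The half-site, spelled GTTAAT, is also on the opposite strand in Pck1.
Pck1 (chr2:173152823-173153047, + strand): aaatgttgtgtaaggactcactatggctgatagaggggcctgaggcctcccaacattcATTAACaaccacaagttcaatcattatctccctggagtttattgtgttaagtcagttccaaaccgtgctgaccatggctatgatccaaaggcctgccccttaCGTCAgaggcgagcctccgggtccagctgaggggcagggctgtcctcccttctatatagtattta
Ppargc1a (chr5:51567727-51567975, - strand): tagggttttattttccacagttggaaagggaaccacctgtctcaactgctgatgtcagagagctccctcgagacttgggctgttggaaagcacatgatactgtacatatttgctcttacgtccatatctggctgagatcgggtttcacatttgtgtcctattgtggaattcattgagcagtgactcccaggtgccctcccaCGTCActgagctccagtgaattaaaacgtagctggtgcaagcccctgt
G6pc (chr11:101367466-101367560, + strand): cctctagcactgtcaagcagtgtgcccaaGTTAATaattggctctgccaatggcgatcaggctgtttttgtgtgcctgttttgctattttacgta
In the Pck1 window the cAMP element lies 90 to 86 bases before the RefSeq start and the HNF1 half-site 192 to 187 bases before it. In the G6pc window the half-site lies 221 to 216 bases before the RefSeq start. Searched on both strands in the 250 bases before the start, TGACG was present in 17.8% of 32851 promoters and GTTAAT in 6.43%. The full element TGACGTCA, which contains TGACG, was present in 508 promoters (1.55%), and the HNF4 repeat AGGTCANAGGTCA in 11 (0.033%). Neither was in a window of the 9 genes. The forkhead core TGTTTNC (17.8% of promoters) was in the G6pc window, in a stretch not printed, and the glucocorticoid half-site TGTTCT (16.1%) in that of Slc5a1. These matches describe letters and do not show that a factor binds there.

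Levels were compared between genes as RPKM, the deposited values scaled to gene length and library total. Pck1 had the highest level of the 9, with a median of 1104 RPKM over the 18 libraries, which placed it 34th of all genes. Fbp1 followed with 875 RPKM, and the ranges of the pair overlapped (357 to 2179 and 668 to 1067). Slc5a2 (median 200 RPKM), Pcx (173 RPKM) and G6pc (170 RPKM) formed the next level, also with overlapping ranges. Slc2a2 (37.9 RPKM) and Slc5a1 (29.7 RPKM) came below them and overlapped each other. Ppargc1a (12.01 RPKM) and Pck2 (4.13 RPKM) were each below the whole range of the gene before them in this order. The cytosolic form of the carboxykinase exceeded the mitochondrial one in every library. The ratio of Pck1 to Pck2 RPKM had a median of 432 in wild-type, 201 in Dp16 and 141 in Dp16 2xIFNRs kidneys.

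Library totals were 42157790 to 57814587 counts. Summed RPKM of the 4 interferon receptor genes was 62.4 to 83.0 in Dp16, above 37.0 to 53.3 in wild-type and 41.1 to 58.2 in Dp16 2xIFNRs, which matches the labels. All 35 markers of the proximal tubule were detected in every library. Wild-type replicate 5 stood apart in its adrenal markers, whose summed RPKM was 33.0 there and 0.121 to 4.18 in the other 17 libraries. Without that library the Pck1 differences from wild-type were -0.92 and -1.36 on the log2 scale for Dp16 and Dp16 2xIFNRs, and both passed the test. The labels do not state whether animals shared a litter, so p-values measure the spread between these animals only. Some animals of different genotypes share the last number of their sample description, whose meaning is not given. With that number as a random block (limma-voom) Pck1 was -0.91 in Dp16 (adjusted p = 0.0170) and -1.30 in Dp16 2xIFNRs (adjusted p = 0.00106) against wild-type.

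Pck1 fell in both duplication groups compared with wild-type, and none of the other 8 genes passed the test in either comparison (edgeR adjusted p under 0.05, by which genes are said to be called). In wild-type kidneys Pck1 stood at 1853, 1904 and 2179 RPKM in females and at 1171, 1294 and 1489 RPKM in males. In Dp16 kidneys it stood at 1009, 1671 and 1970 RPKM in females and at 357, 505 and 787 RPKM in males. The 3 Dp16 males were all below the 3 wild-type males, while the Dp16 females overlapped the wild-type females. In Dp16 2xIFNRs kidneys it stood at 663, 1037 and 1374 RPKM in females and at 454, 466 and 469 RPKM in males. All 3 females and all 3 males of this group were below every wild-type animal of their sex.

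**Figure D1:**
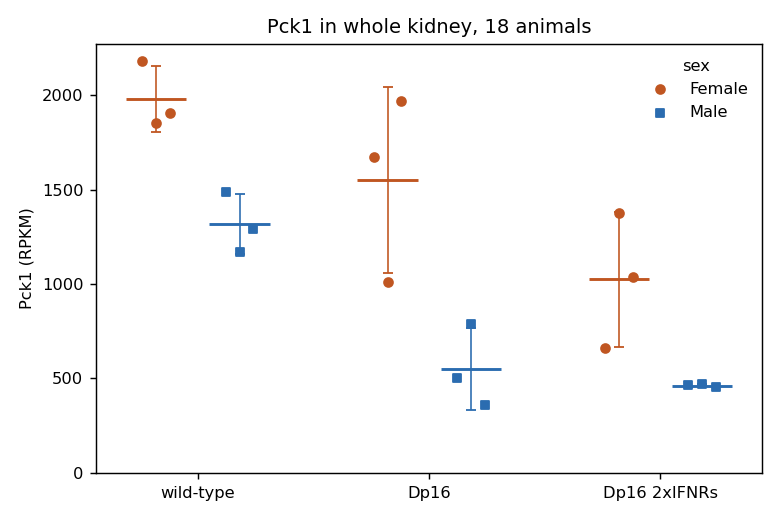
Pck1 level in RPKM (vertical axis) of each of the 18 animals by group and sex, with points for animals, horizontal lines for the mean and whiskers for the SD (n = 3) of each sex within a group. Wild-type females sit at 1853 to 2179 and wild-type males at 1171 to 1489, and the Dp16 2xIFNRs males at 454 to 469.

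For Dp16 against wild-type the log2 fold change of Pck1 was -0.84 ± 0.21 (SE, 95% interval -1.28 to -0.41), or 0.557 times the wild-type level, with an edgeR adjusted p of 0.0258. It was below the wild-type median of the same sex in 5 of 6 animals. Among the genes not called, Fbp1 was also below it in 5 of 6. Slc5a2, Slc5a1 and Ppargc1a were above it in 5 of 6, and Pck2 in 6 of 6. Of all genes tested, 4.23% were called in this comparison, 1.06% lower and 3.17% higher, beside 1 and 0 of the 9 genes. The call is near the threshold. It was lost when any of wild-type replicates 1 and 4 or Dp16 replicates 1, 3 and 6 was left out (log2 fold changes of -0.76, -0.81, -0.77, -0.78 and -0.70, with adjusted p between 0.0539 and 0.0770), when sex was left out of the fit (-0.70, adjusted p = 0.487) and when the 2 groups were fitted alone (-0.84, adjusted p = 0.0527).

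For Dp16 2xIFNRs against wild-type the log2 fold change of Pck1 was -1.29 ± 0.21 (SE, 95% interval -1.73 to -0.85), or 0.410 times the wild-type level, with an edgeR adjusted p of 0.00139. It was lower in 6 of 6 animals than the wild-type median of their sex. Among the genes not called, Fbp1 was also lower in 6 of 6, and Slc5a2, Slc5a1 and Ppargc1a were higher in 6 of 6. The share of all genes tested with such counts is not given here, so these counts alone do not set Pck1 apart. In this comparison 4.79% of genes were called, 1.61% lower and 3.17% higher, again beside 1 and 0 of the 9 genes. The call was kept with each library left out (log2 fold changes of -1.41 to -1.20, adjusted p at most 0.00518) and was lost without sex in the fit (-1.19, adjusted p = 0.115). Both comparisons share the 6 wild-type libraries.

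Between Dp16 2xIFNRs and Dp16 the log2 fold change of Pck1 was -0.44 ± 0.21 (SE, 95% interval -0.88 to -0.01), with an unadjusted edgeR p of 0.0457 and an adjusted p of 0.850. All 6 Dp16 2xIFNRs animals were below the Dp16 median of their sex, and the groups overlapped in both sexes. None of the 9 genes was called here, where 3 of all genes tested (0.0171%) were. A lower Pck1 in the Dp16 2xIFNRs group than in Dp16 is not shown by this test, nor is an equal level.

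**Figure D2:**
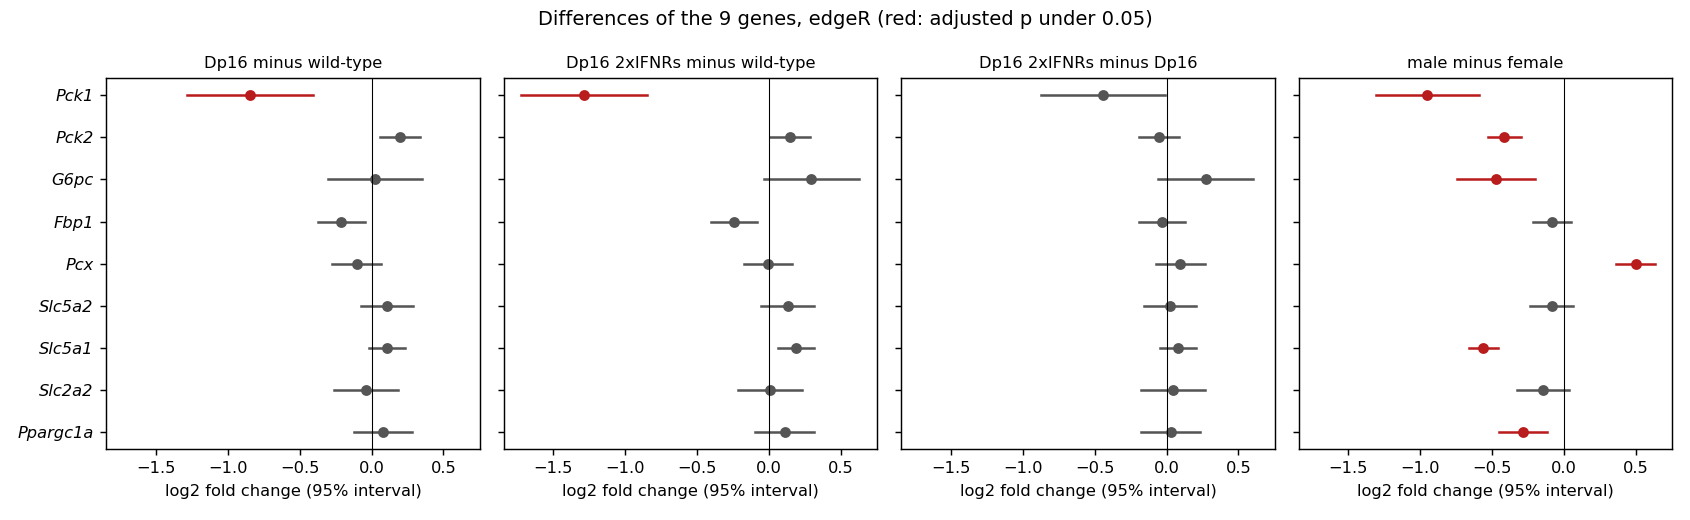
Log2 fold change (horizontal axis) of each of the 9 genes in the 3 genotype comparisons and between the sexes, with bars for the 95% interval and red for an edgeR adjusted p under 0.05. Pck1 is the only red gene in the comparisons with wild-type, at -0.84 and -1.29.

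The estimate of the Pck1 difference was larger in males than in females in both comparisons with wild-type, but the difference between the sexes did not pass the test. For Dp16 it was -0.38 ± 0.27 (SE) in females and -1.30 ± 0.27 in males on the log2 scale, and males differed from females by -0.92 ± 0.38 (edgeR unadjusted p = 0.0246, adjusted p = 0.631). For Dp16 2xIFNRs it was -0.98 ± 0.27 in females and -1.56 ± 0.27 in males, a difference of -0.58 ± 0.38 (adjusted p = 1.00). In the same fit the male differences passed the test (adjusted p of 0.0169 and 0.00576) and the female ones did not (0.566 and 0.156). With 3 animals per sex and group, a dependence on sex was not resolved.

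Since Pck1 is a proximal tubule gene, its level was also set against the mean of the 35 markers of that segment. Pck1 relative to this mean was lower in Dp16 than in wild-type by a log2 difference of -0.84 (95% interval -1.42 to -0.26, exact permutation within sex, two-sided p = 0.02, adjusted over 3 comparisons 0.03, in 5 of 6 animals). In Dp16 2xIFNRs the difference was -1.28 (95% interval -1.64 to -0.92, exact permutation p = 0.005, the smallest that 400 permutations can give, adjusted 0.015, in 6 of 6 animals). Between Dp16 2xIFNRs and Dp16 it was -0.45 (95% interval -1.04 to 0.13, exact permutation p = 0.115). The Dp16 call was lost against the 10 markers that did not differ between the sexes (-0.75, exact permutation adjusted p = 0.06), against the endocytic receptors Lrp2 and Cubn alone (-0.69, 0.095), and without wild-type replicate 1, 2 or 4 or Dp16 replicate 3 (adjusted p of 0.0525 to 0.06). Fewer tubule cells and less of a transcript per cell cannot be told apart in whole kidney for any single gene.

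**Figure D3:**
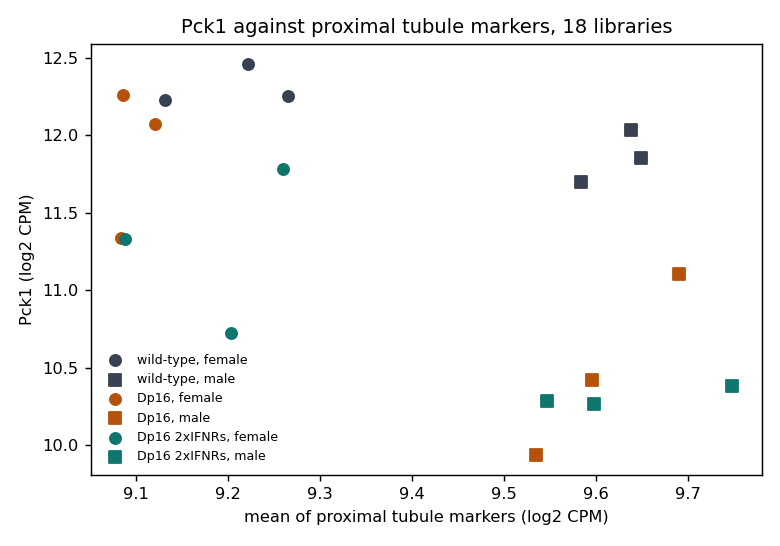
Pck1 log2 CPM (vertical axis) against the mean log2 CPM of the 35 proximal tubule markers (horizontal axis) in each animal, with colour for group and shape for sex. Males lie to the right of females on the marker axis, and the Dp16 2xIFNRs animals lie below the wild-type animals of their sex.

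Of the 35 proximal tubule markers, 1 rose and 3 fell in each comparison with wild-type. Beside them, 3.17% of all genes tested rose in each, and 1.06% (Dp16) and 1.61% (Dp16 2xIFNRs) fell. The organic anion transporter gene Slc22a8 fell (log2 fold changes of -0.42 and -0.43 in Dp16 and Dp16 2xIFNRs, edgeR adjusted p of 0.0109 and 0.00884). The dicarboxylate transporter gene Slc13a3 (-0.35 and -0.29, adjusted p of 0.0163 and 0.0385) and Slc22a7, another anion transporter gene (-0.50 and -0.53, adjusted p of 0.0495 and 0.0345), also fell in both. Miox, which begins inositol breakdown, rose in Dp16 (0.27, adjusted p = 0.0368) and had 0.24 in Dp16 2xIFNRs (adjusted p = 0.0531). The sulfate transporter gene Slc13a1 rose in Dp16 2xIFNRs (0.48, adjusted p = 0.00803) and had 0.29 in Dp16 (adjusted p = 0.102). The androgen-regulated gene Kap alone made up 39.5% to 70.4% of the summed RPKM of the list. The other 34 markers summed to 12792 to 16714 RPKM in wild-type, 12669 to 16622 in Dp16 and 13281 to 17162 in Dp16 2xIFNRs, so the groups overlapped.

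Among the other enzymes of the path, Fbp1 had negative log2 fold changes that did not pass the test over both sexes, -0.21 ± 0.08 (SE) in Dp16 (edgeR adjusted p = 0.140) and -0.24 ± 0.08 in Dp16 2xIFNRs (adjusted p = 0.0793). Its level in males was 870, 931 and 961 RPKM in wild-type, 668, 713 and 770 in Dp16, and 695, 773 and 774 in Dp16 2xIFNRs. Males of both duplication groups were thus below all wild-type males. In females it was 805, 936 and 1067 RPKM in wild-type, 918, 923 and 975 in Dp16, and 811, 881 and 914 in Dp16 2xIFNRs, and each of these groups overlapped wild-type. Without wild-type replicate 5, the lowest wild-type female, Fbp1 was called in both comparisons (-0.27, adjusted p = 0.0255, and -0.31, adjusted p = 0.0120). In the fit with separate effects by sex, Fbp1 passed the test in Dp16 males (-0.40 ± 0.09, adjusted p = 0.0351) and not in Dp16 2xIFNRs males (-0.35 ± 0.09, adjusted p = 0.0720), and it passed in neither when males were fitted alone. The male minus female difference of the Dp16 effect on Fbp1 was -0.39 ± 0.13 (unadjusted p = 0.00956, adjusted p = 0.623).

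Non-overlap of 3 against 3 animals was common. In males it held for 4 of the 9 genes in each comparison with wild-type (Pck1 and Fbp1 lower, Pck2 and Slc5a1 higher), beside 18.2% of all genes tested for Dp16 and 19.8% for Dp16 2xIFNRs. In females it held for Pck2 (higher) in Dp16, beside 14.7%, and for G6pc (higher) and Pck1 (lower) in Dp16 2xIFNRs, beside 15.1%.

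G6pc differed in its pattern from Pck1. Its level in females was 149, 177 and 193 RPKM in wild-type, 178, 181 and 185 in Dp16, and 234, 254 and 360 in Dp16 2xIFNRs. In males it was 133, 137 and 144 RPKM in wild-type, 121, 127 and 180 in Dp16, and 98.4, 131 and 164 in Dp16 2xIFNRs. The Dp16 2xIFNRs females were above all other females, and the males of the 3 groups overlapped. Over both sexes the log2 fold change was 0.02 ± 0.16 (SE) in Dp16 (edgeR adjusted p = 0.964) and 0.29 ± 0.16 in Dp16 2xIFNRs (adjusted p = 0.337). For Dp16 2xIFNRs against wild-type it was 0.68 ± 0.18 in females and -0.13 ± 0.17 in males, and males differed from females by -0.81 ± 0.25 (unadjusted p = 0.00419, adjusted p = 0.943). That difference passed the test only when no filter on low counts was used (-0.81, adjusted p = 0.0231). The ratio of Pck1 to G6pc RPKM had a median of 10.8 in wild-type, 5.87 in Dp16 and 3.64 in Dp16 2xIFNRs.

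Pcx and Pck2, whose products share the mitochondrion, were not called in any genotype comparison. Pcx ranged over 144 to 225 RPKM in wild-type, 130 to 209 in Dp16 and 148 to 202 in Dp16 2xIFNRs, with log2 fold changes against wild-type of -0.10 ± 0.08 and -0.01 ± 0.08 (SE). Pck2 ranged over 2.77 to 5.02 RPKM in wild-type, 3.43 to 5.36 in Dp16 and 3.44 to 5.38 in Dp16 2xIFNRs. Its log2 fold changes were 0.20 ± 0.07 (edgeR adjusted p = 0.106) and 0.14 ± 0.07 (adjusted p = 0.255), and it was above the wild-type median of the same sex in 6 of 6 Dp16 and 5 of 6 Dp16 2xIFNRs animals. The mitochondrial form thus did not fall with the cytosolic one.

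The glucose carriers were not called between genotypes. Slc5a2 had medians of 192, 200 and 206 RPKM in wild-type, Dp16 and Dp16 2xIFNRs, with 95% intervals of the log2 fold change against wild-type of -0.08 to 0.29 and -0.05 to 0.31. Slc2a2 had medians of 39.9, 37.3 and 37.9 RPKM, with intervals of -0.26 to 0.19 and -0.22 to 0.23. All 4 of these intervals include 0. Slc5a1 in males was 19.3, 20.2 and 20.8 RPKM in wild-type, 23.1, 24.6 and 24.7 in Dp16, and 22.1, 23.8 and 26.3 in Dp16 2xIFNRs. Males of both duplication groups were above all wild-type males. Over both sexes the log2 fold changes of Slc5a1 were 0.11 ± 0.06 (SE, edgeR adjusted p = 0.395) and 0.19 ± 0.06 (adjusted p = 0.0781). The coactivator gene Ppargc1a had medians of 12.2, 11.8 and 12.6 RPKM in the 3 groups and log2 fold changes of 0.08 ± 0.10 and 0.11 ± 0.10, neither of them called.

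**Figure D4:**
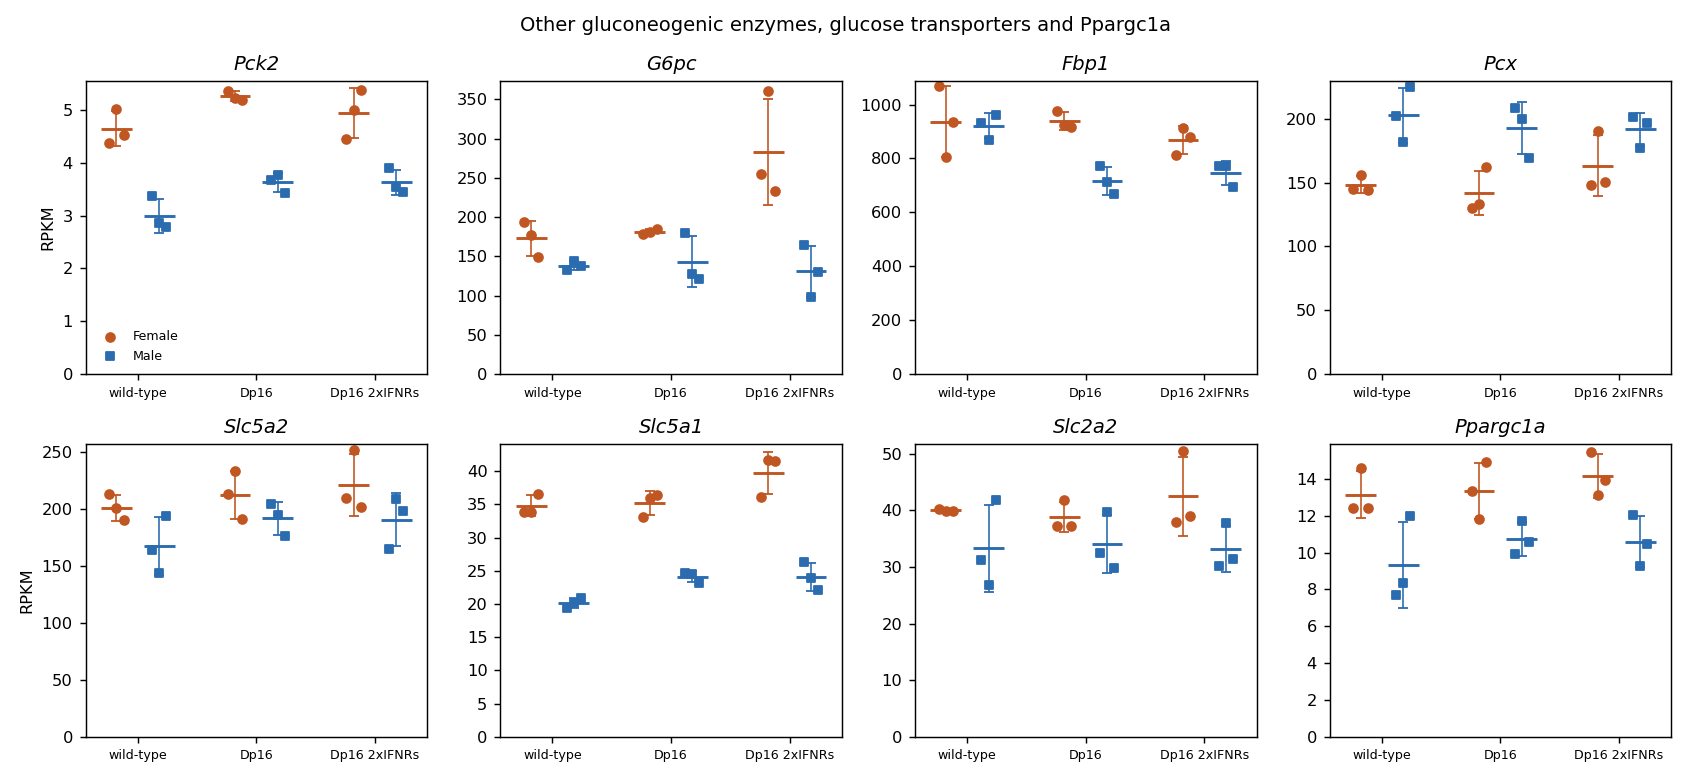
RPKM (vertical axes, each with its own range) of the other 8 genes in each animal by group and sex, with points for animals, lines for the mean and whiskers for the SD (n = 3). The sexes separate in Pck2 and Slc5a1, and G6pc in Dp16 2xIFNRs females reaches 360.

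Sex differed in more of the 9 genes than genotype did, as it did across the kidney, where 38.8% of all genes tested were called between males and females. Of the 9, 5 were lower in males (19.7% of all genes), 1 was higher in males (19%) and 3 were not called. Pck1 was lower in males by a log2 fold change of -0.95 ± 0.17 (SE, edgeR adjusted p = 0.000178). Slc5a1 was lower (-0.56 ± 0.05, adjusted p = 1.49e-08), with 19.3 to 26.3 RPKM in males and 33.1 to 41.7 in females. Pck2 was lower too (-0.42 ± 0.05, adjusted p = 4.48e-06), with 2.77 to 3.89 RPKM in males and 4.38 to 5.38 in females. In both genes the sexes did not overlap, beside 10% of all genes tested. G6pc (-0.47 ± 0.13, adjusted p = 0.00636) and Ppargc1a (-0.29 ± 0.08, adjusted p = 0.00709) were lower in males with overlapping ranges. Pcx went the other way, with 169 to 225 RPKM in males and 130 to 191 in females (0.50 ± 0.07, adjusted p = 5.25e-06).

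Pcx, the entry step of the path, was thus higher in males, while Pck1 and G6pc, which act after it, were lower. Fbp1, Slc5a2 and Slc2a2 were not called between the sexes (log2 fold changes of -0.09, -0.09 and -0.15). The log2 RPKM scale has no scaling for composition. On it the median log2 fold change of all genes was -0.13, beside -0.03 in the edgeR fit. Fbp1, Slc5a2 and Slc2a2 were called lower in males on that scale (-0.21, -0.21 and -0.28). Of the genes called there, 24.7% were higher in males in place of 49.1%. The mean log2 CPM of the proximal tubule markers was 9.62 ± 0.07 (SD, n = 9) in males and 9.16 ± 0.08 in females. With that mean in the fit, which left little of the sex difference free, Slc5a1 kept its call (-0.77) and Slc2a2 gained one (-1.08). Pck1 (-1.50), Pck2 (-0.39), G6pc (-0.54), Pcx (0.22) and Ppargc1a (-0.26) kept their direction and lost their calls (adjusted p of 0.423 to 0.880). The loss does not show that their difference between the sexes was smaller, and that of Pck1 was larger than without the covariate.

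Around the core path, the few called genes that feed carbon into it were all lower. Of 24 genes of precursor supply, 0 rose and 2 fell in Dp16, and 0 rose and 3 fell in Dp16 2xIFNRs. Over all genes tested, 3.17% rose in each, while 1.06% fell in Dp16 and 1.61% in Dp16 2xIFNRs. Fold changes were above 0 in 9 and 8 of the 24. Their median log2 fold changes were -0.12 and -0.13, beside -0.01 and 0.01 over all genes tested. Medians were also below 0 for 43 transcriptional and hormonal regulators (-0.12 and -0.09) and the proximal tubule markers (-0.10 and -0.05). Slc25a10, the mitochondrial dicarboxylate carrier, fell in both. Its level was 224 to 279 RPKM (median 260) in wild-type, 167 to 236 (median 189) in Dp16 and 148 to 213 (median 195) in Dp16 2xIFNRs, with log2 fold changes of -0.44 ± 0.09 (SE, edgeR adjusted p = 0.00510) and -0.48 ± 0.09 (adjusted p = 0.00268). The Dp16 2xIFNRs range lay below the wild-type range, and the Dp16 range overlapped it. The share of all genes tested whose ranges separate in this way is not given here, so no weight is put on it. Gk, glycerol kinase, was at the threshold in both, passing it in Dp16 (-0.22 ± 0.06, adjusted p = 0.0499) and not in Dp16 2xIFNRs (-0.21 ± 0.06, adjusted p = 0.0589).

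Slc38a3 and Glud1, which handle glutamine, the main amino acid source of renal glucose and ammonia, fell in Dp16 2xIFNRs. The glutamine transporter gene Slc38a3 stood at 29.5 to 59.5 RPKM (median 40.3) in wild-type and 11.3 to 32.0 (median 17.9) in Dp16 2xIFNRs, a log2 fold change of -1.24 ± 0.27 (SE, edgeR adjusted p = 0.0107). In Dp16 it ranged from 12.1 to 81.7 RPKM (median 23.9), with -0.66 and an adjusted p of 0.206. Glutamate dehydrogenase (Glud1) fell in Dp16 2xIFNRs (-0.48 ± 0.10, adjusted p = 0.01003) and had -0.31 in Dp16 (adjusted p = 0.0988). Whether Slc38a3 and Glud1 differed between the duplication groups was tested in the comparison of Dp16 2xIFNRs with Dp16. No gene of the list was called there, beside 0.0171% of all genes tested.

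**Figure D5:**
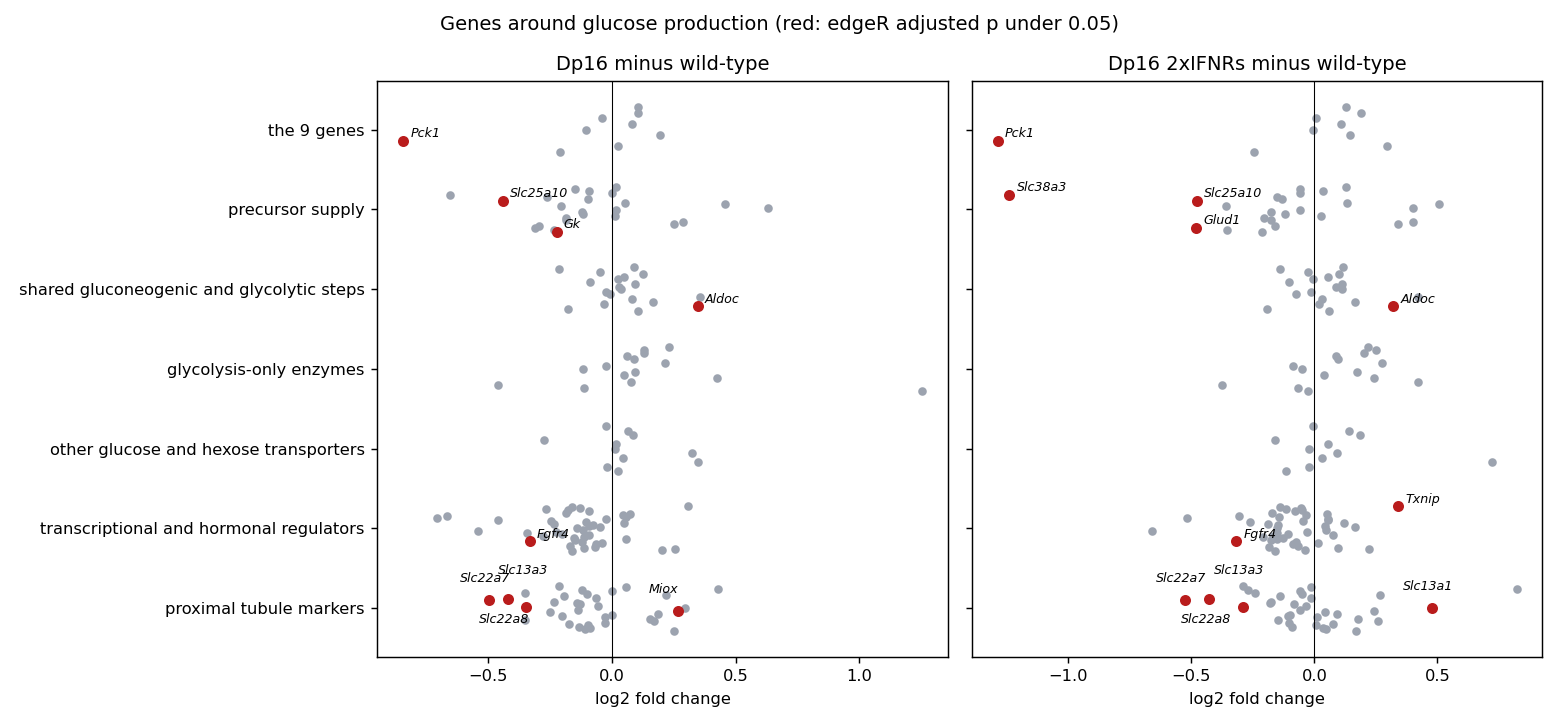
Log2 fold change against wild-type (horizontal axis) of every tested gene of 7 groups around glucose production, for Dp16 (left) and Dp16 2xIFNRs (right), with red points and names for an edgeR adjusted p under 0.05. Called genes of precursor supply lie left of 0, and the glycolysis and other carrier groups hold no called gene.

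The steps shared with glycolysis, the steps of glycolysis alone and the other sugar carriers held 1 called gene between them. Over all genes tested, 4.23% were called in Dp16 and 4.79% in Dp16 2xIFNRs against wild-type. At such shares, few calls in lists of this size do not set these groups or the regulators apart. Aldoc, an aldolase form, rose in Dp16 (log2 fold change 0.35, edgeR adjusted p = 0.0350) and in Dp16 2xIFNRs (0.32, adjusted p = 0.0472), as the only called gene of 19 shared steps. Of 15 genes of glycolysis alone and 11 tested genes of 13 other glucose and hexose carriers, 0 were called in either comparison. Of 43 transcriptional and hormonal regulators, Fgfr4, a fibroblast growth factor receptor gene, fell in both (-0.33, adjusted p = 0.0185, and -0.32, adjusted p = 0.0223). Txnip, which is induced by glucose and restrains its uptake, rose in Dp16 2xIFNRs (0.34, adjusted p = 0.0444) and had 0.31 in Dp16 (adjusted p = 0.0722). The other regulators on the list did not pass the test. In the comparison of Dp16 2xIFNRs with Dp16, 0 genes of any of these groups were called, beside 0.0171% of all genes tested.

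Pck1 is also expressed in fat cells, which use it to make glycerol, and kidneys carry fat at the hilum. Of 14 fat markers, Adipoq rose in Dp16 (log2 fold change 0.60, edgeR adjusted p = 0.0438), while the brown fat genes Ucp1 (-2.26, adjusted p = 0.0291) and Cidea (-1.53, adjusted p = 0.0116) and the triglyceride synthesis gene Dgat2 (-0.31, adjusted p = 0.0495) fell in Dp16 2xIFNRs. In the other comparison, none of the 4 passed the test (Adipoq 0.25, Ucp1 -1.53, Cidea -1.09 and Dgat2 -0.26, adjusted p of 0.461, 0.139, 0.0737 and 0.114). Of the 14, 1 rose and 0 fell in Dp16, and 0 rose and 3 fell in Dp16 2xIFNRs. Over all genes tested, 3.17% rose in each comparison, while 1.06% fell in Dp16 and 1.61% in Dp16 2xIFNRs. Summed RPKM of the list was 691 to 1237 in wild-type, 952 to 1351 in Dp16 and 810 to 1181 in Dp16 2xIFNRs, and none of the 14 was at 0 in any library. With the mean of the fat markers in the fit, Pck1 kept its call in both comparisons (-0.90, adjusted p = 0.0276, and -1.24, adjusted p = 0.00281). With the mean of the proximal tubule markers in the fit it was -0.78 (adjusted p = 0.0801) in Dp16 and -1.28 (adjusted p = 0.00176) in Dp16 2xIFNRs. The fat mean joins markers that moved in both directions, and the part of fat in the Pck1 difference was not tested.

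Markers of immune cells, tubule injury and other kidney cells moved in the same groups as Pck1 fell. In each comparison with wild-type 3.17% of all genes tested were called higher, and 1.06% (Dp16) and 1.61% (Dp16 2xIFNRs) lower. Of 15 macrophage and dendritic cell markers 11 rose in Dp16 and 13 in Dp16 2xIFNRs, with summed RPKM of 374 to 618 in wild-type, 645 to 960 in Dp16 and 613 to 869 in Dp16 2xIFNRs. Of 13 lymphocyte markers 6 and 3 rose (109 to 211, 299 to 934 and 171 to 805 RPKM). Of 10 injury markers 6 rose in each comparison, among them Lcn2 (log2 fold changes of 1.04 and 0.84, edgeR adjusted p of 0.000377 and 0.00247), and their summed levels overlapped (520 to 1209, 714 to 1546 and 685 to 1429 RPKM). No macrophage or injury marker was at 0 in any library. Of 8 liver markers, Alb fell in both (-1.26 and -1.44, adjusted p of 0.0327 and 0.0145) and Apoc3 in Dp16 2xIFNRs (-0.63, adjusted p = 0.0479), with -0.45 (adjusted p = 0.180) in Dp16. Alb ranged over 6.12 to 86.5 RPKM (median 12.3) in wild-type. It was 2.90 to 17.9 (median 7.76) in Dp16 and 3.10 to 13.2 (median 7.42) in Dp16 2xIFNRs. Summed RPKM of the liver list overlapped (77.8 to 214, 108 to 190 and 101 to 182). Of 19 markers of the loop, distal tubule and collecting duct, 15 and 17 had fold changes above 0, with medians of 0.13 and 0.16, beside -0.01 and 0.01 over all genes. Calb1, a calcium-binding protein gene of the distal tubule, rose in both (0.38 and 0.40, adjusted p of 0.0199 and 0.0131), and Pvalb rose in Dp16 2xIFNRs (0.36, adjusted p = 0.0446) and had 0.26 in Dp16 (adjusted p = 0.168). No other marker of the list was called. Their summed RPKM overlapped (2222 to 3155 in wild-type, 2334 to 3391 in Dp16 and 2151 to 3419 in Dp16 2xIFNRs). Of 10 endothelium and stroma markers 10 were above 0 in both, with medians of 0.22 and 0.21. Of these the collagen gene Col3a1 alone was called. It rose in Dp16 (0.62, adjusted p = 0.0332; 0.53 and 0.0653 in Dp16 2xIFNRs), with summed RPKM of 138 to 213, 167 to 275 and 137 to 267. The part of any of these cells in the Pck1 difference was not tested.

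The genes most like Pck1 were found by the correlation of log2 CPM over the 18 libraries among 12615 genes, as a description, since these points share genotype and sex. Slc13a2, the sodium-coupled citrate and dicarboxylate transporter of the proximal tubule, was closest (Pearson r = 0.936, Spearman rho = 0.924, and r = 0.934 without the 2 libraries farthest from the median). It was followed by Gm15318 (r = 0.936), Gpc1 (0.914), Pccb (0.904), Nepn (0.891) and Hmgb1 (0.889). For comparison, 10.1% of the genes compared had r above 0.5. Slc13a2 had medians of 40.6, 24.1 and 25.3 RPKM in wild-type, Dp16 and Dp16 2xIFNRs, and log2 fold changes of -0.57 and -0.66 against wild-type and -0.68 in males against females. Among the other 8 genes Fbp1 was most like Pck1 (r = 0.763), and Pcx had r = -0.366.

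When the mean of each sex within each group was removed, so that only animals of 1 sex and genotype were compared, the order changed. Lrp11 (r = 0.917), Dpf3 (0.863), Slc25a16 (0.853), Acot12 (0.847), Slc39a14 (0.843) and Slc25a10 (0.842) were then closest, with 5.49% of genes above 0.5. Slc25a10, the dicarboxylate carrier that fell in both duplication groups, was thus also among the 6 closest to Pck1 here. These 6 were picked as the highest of 12615 genes and were not tested. With the means removed, the 18 libraries hold fewer independent values, so a high r comes more easily by chance. Of the other 8 genes Pcx was then closest to Pck1 (r = 0.622) and Ppargc1a had r = 0.083.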

How the data were processed

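PolyA RNA of whole kidney from 18 mice was sequenced in 3 groups of 6. Per the labels' protocols, libraries were strand-specific and reads paired-end. Per the submitters' processing notes, HISAT2 2.1.0 and HTSeq 0.6.1 were among the tools used with GRCm38. The strand setting of the counting is not given in the sources used here. The authors deposited raw counts per gene, and RPKM values whose making is not given. Counts divided by RPKM gave a constant gene length within 0.1% in 11491 of 11491 genes checked, with the library total as denominator.

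A quasi-likelihood model of edgeR 4.0.16 (R 4.3.3) was fitted to the 18 libraries together, on TMM-scaled counts, with terms for genotype group and for sex. The filter by group (minimum count 10, minimum total 15) removed 37810 of 55385 genes. Two-sided p-values were corrected over 17575 genes by the Benjamini-Hochberg method, and genes under 0.05 are said to be called. The biological coefficient of variation was 16.8%. The SE is the log2 fold change over the square root of F and is approximate. Log2 CPM used a prior count of 2. The relative level of Pck1 was tested by exact permutation of animals within sex (400 ways), which was inverted for the interval. Libraries of a group differed beyond sampling noise (chi-square over its degrees of freedom at least 19.84). In simulated data of the Dp16 and wild-type comparison (17575 genes), true changes of 1.5-fold were recovered in 57% and of 2-fold in 81%, and 5 unchanged genes were called.

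The 9 genes and the gene lists were chosen with earlier results of these data known. The named genes are the 9, up to 3 called genes of smallest p per list and comparison, and the 6 most correlated with Pck1 in each of 2 ways, at an average log2 CPM of at least 1. Of the genes so picked, those of the macrophage, lymphocyte and adrenal lists and of the injury list other than Lcn2 are not described. Kap, Lrp2 and Cubn are named as tubule markers outside this rule. Sex-called genes of the lists are not described. Alternatives were RLE size factors, no filter, a stricter filter (average log2 CPM of 1), other covariates, DESeq2 1.42.0, a block for the sample number or for the last number of the description, limma 3.58.1 with voom or on log2 RPKM with pseudocounts of 0.1 and 1, 2 groups or 1 sex alone, and each library left out. Those for the sex by genotype test were chosen after seeing the data.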

Additional observations from a re-analysis of the deposited data

Results flagged for a closer look

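In 45 groups of values, each 1 gene in the 6 animals of a genotype or the 9 of a sex, 2 values stood far from the rest. About 1 in 20 such groups would hold one by chance. Both belong to the female Dp16 2xIFNRs replicate 4 among the 9 females. G6pc, the glucose-6-phosphatase subunit, was 360 RPKM there, and the next female had 254 RPKM. Slc2a2, the gene of the GLUT2 exit carrier, was 50.5 RPKM there, and the next female had 41.8 RPKM.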

How the results depend on the processing

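Of 1610 recomputed values, 1549 kept their call or lack of one, or a count within 1.5 times. Of the rest, 41 lost and 20 gained a call or moved a count by over 1.5 times. A called direction was turned in 0. Genes not called could change sign and still count as kept, as G6pc in Dp16 against wild-type did (-0.09 to 0.07). Pck1 in Dp16 against wild-type was called in 24 of 33 alternatives. It was not called without sex (-0.70, adjusted p = 0.487), with the proximal tubule mean as covariate (-0.78, 0.0801), with 2 groups alone (-0.84, 0.0527) or in females alone (-0.37, 0.555), and leaving out 1 library gave -0.97 to -0.70. In Dp16 2xIFNRs against wild-type it was called in 31 of 33, not without sex (-1.19, 0.115) or in females alone (-0.98, 0.133), and leaving out 1 library gave -1.41 to -1.20. Fbp1 was called in 4 of 33 alternatives there, including no filter (-0.26, 0.0410) and DESeq2 (-0.26, 0.0367), and Slc5a1 in 3 of 33, including log2 RPKM (0.22, 0.0331). Genes called in Dp16 against wild-type numbered 190 without sex, 394 with the proximal tubule covariate, 1236 with DESeq2, 453 with 2 groups alone, 184 in males, 6 in females, and 429 to 815 with 1 library left out (478 without wild-type replicate 4, 462 and 429 without Dp16 replicates 1 and 3). In Dp16 2xIFNRs against wild-type they numbered 234 without sex, 1287 with DESeq2, 192 in males, 29 in females, and 526 to 920 with 1 library left out (526 without wild-type replicate 1, 552 without Dp16 2xIFNRs replicate 1). Between Dp16 2xIFNRs and Dp16 they numbered 1 in males and 0 in females, and between the sexes 282 with the proximal tubule covariate. The sex by genotype test without a filter called 1 of the 9 genes, G6pc. Pck1 relative to the tubule markers was -0.84 (adjusted p = 0.198) in Dp16 and -1.28 (0.0584) in Dp16 2xIFNRs by exact permutation without regard to sex, and in Dp16 -0.75 (0.06) against markers equal by sex and -0.69 (0.095) against Lrp2 and Cubn. With 1 library left out it was -0.97 to -0.70 in Dp16, -1.39 to -1.14 in Dp16 2xIFNRs, and -0.58 to -0.31 between them (0.035 without Dp16 replicate 6). The causes of these changes were not tested.

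Whether sample numbers pair the animals was not settled. Correlations of same-numbered deviations were low (-0.055 to 0.22). In the 3 comparisons 3, 2 and 3 of 6 were closest to their own number, where a random match would give about 1 of 6. With the number as a replicate block Pck1 was -0.88 (adjusted p = 0.0124), -1.30 (0.00116) and -0.41 (0.687) in the 3 comparisons. The block gave Fbp1 a call in Dp16 2xIFNRs (-0.24, 0.0374) and ended that of Ppargc1a by sex (-0.16, 0.188). Animals of 1 sex number 3 per group, which limits statements within a sex.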
